A study of Mus musculus with 6 samples.

Results

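The 10 genes described here, Lpl, Gpihbp1, Angptl4, Vldlr, Cd36, Slc27a1, Slc27a2, Fabp3, Fabp4 and Fabp5, supply adipocytes with fatty acids from outside the cell and carry them once inside. They were taken by name from the 21938 protein-coding genes of the GENCODE annotation of mm10. No cutoff on a measured value was used, but the genes were chosen with earlier results of these data known. Open chromatin was measured by ATAC-seq, in which a transposase cuts accessible DNA and stretches with many cuts are called as peaks. The 6 peak lists came from 3 groups of 2 libraries each. Lists were merged wherever peaks shared at least 1 bp. Of the 194610 merged regions, 216 had their strongest summit within a member gene or within 50 kb of one, and no region lay near 2 members.

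All groups were primary cultures from wild type male C57BL/6J mice aged 3 to 4 weeks, grown from the stromal vascular fraction, the mixed progenitor, vascular and immune cells left when fat cells are removed from the tissue. Beige and white adipocytes were both derived from inguinal fat, and brown adipocytes from brown fat. The beige and the brown cultures were induced with insulin, 5 μM dexamethasone, 0.5 mM IBMX, 1 nM T3 and 1 μM rosiglitazone, a drug that activates the fatty acid receptor PPARG, and were then kept in insulin, T3 and rosiglitazone. White cultures received insulin, 1 μM dexamethasone and 0.5 mM IBMX, then insulin alone. All were collected after 7 days. Rosiglitazone was therefore never given without T3 and the higher dexamethasone dose, and the effects of these agents cannot be told apart. For brown against white, the depot of origin also differed. A peak carried by more cells and a peak more open in each cell cannot be told apart in such cultures.

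Triglyceride in circulating lipoproteins is split by lipoprotein lipase, the product of Lpl, which GPIHBP1 carries to the capillary wall and ANGPTL4 inactivates. The released fatty acids enter through the membrane receptor CD36 and the SLC27A transport proteins, which also couple fatty acids to coenzyme A, and are bound in the cytoplasm by FABP proteins. Many of these genes are textbook targets of PPARG, which binds with RXR to DR1 elements, direct repeats of a hexamer with a single base between the copies.

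The lists held 109143 to 127490 peaks per library. The white replicates shared 56.9% of the regions open in either of them, against 66.9% in beige and 60.7% in brown, so results were also computed without each white library. Promoter peaks, with the summit within 1 kb of a start site, were found for 7 to 9 of 10 adipocyte markers in each library, with none for Cfd. They were found for 6 to 7 of 10 endothelial markers, with none for Cdh5, Emcn or Vwf. For macrophage markers it was 2 to 3 of 10, with none for Ptprc, Csf1r, Spi1, C1qa, Fcgr1 or Mrc1. For progenitor markers it was 8 to 9 of 10, with none for Ly6a. Of all protein-coding genes, 61.8% had a promoter peak in all 6 libraries. The part of other cell types in the results was not tested. The files give no read counts, and each peak's fold enrichment and −log10 q are relative to its own library. Both were therefore turned into percentiles within the library's own list, where 100 is the strongest peak. With 2 libraries a group, an exact permutation test of 2 against 2 cannot give a two-sided p below 0.333, and 4 against 2 cannot go below 0.0667. Differences are given as values and counts beside the share of all regions that met the same rule, with no test.

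A total of 6 regions near the 10 genes had a peak in both beige and both brown libraries and in neither white library. Of these, 4 lay in or beside Cd36, 1 lay upstream of Fabp4 and 1 upstream of Vldlr. The windows of 201 bp around the strongest summits of 5 of them are shown because they carry this difference. The sixth, inside Cd36, was left out because 84.1% of its window is repeat sequence in the reference. Sequences are the mm10 plus strand, 5′ to 3′, with matches to the DR1 consensus (at most 1 mismatch) in capitals.
Cd36, 30497 bp upstream of the first start site, chr5:17919144-17919344: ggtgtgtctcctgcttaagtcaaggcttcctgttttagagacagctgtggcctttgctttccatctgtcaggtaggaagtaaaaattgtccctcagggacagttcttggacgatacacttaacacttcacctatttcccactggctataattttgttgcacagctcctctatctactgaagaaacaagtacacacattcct
Cd36, intron, 24982 bp into the gene, chr5:17863665-17863865: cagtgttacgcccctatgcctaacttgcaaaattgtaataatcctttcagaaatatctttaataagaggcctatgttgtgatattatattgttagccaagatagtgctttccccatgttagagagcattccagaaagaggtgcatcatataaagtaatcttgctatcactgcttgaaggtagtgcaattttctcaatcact
Cd36, downstream, 120176 bp from the first start site, chr5:17768471-17768671: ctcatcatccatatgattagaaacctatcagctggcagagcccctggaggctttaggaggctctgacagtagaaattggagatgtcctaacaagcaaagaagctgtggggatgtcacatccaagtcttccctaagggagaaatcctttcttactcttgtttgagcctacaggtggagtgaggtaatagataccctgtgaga
Fabp4, 3366 bp upstream, chr3:10211842-10212042: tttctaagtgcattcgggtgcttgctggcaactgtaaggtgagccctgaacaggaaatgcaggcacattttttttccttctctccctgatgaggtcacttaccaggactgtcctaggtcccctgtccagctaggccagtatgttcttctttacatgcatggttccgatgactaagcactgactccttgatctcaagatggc
Vldlr, 41187 bp upstream, chr19:27175733-27175933: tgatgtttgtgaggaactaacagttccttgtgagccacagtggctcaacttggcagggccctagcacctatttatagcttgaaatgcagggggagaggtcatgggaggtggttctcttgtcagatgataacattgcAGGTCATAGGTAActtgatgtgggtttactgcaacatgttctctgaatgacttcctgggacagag
Further windows are shown from regions with a peak in both beige and neither white library that held a DR1 match.
Cd36, intron, 63694 bp into the gene, chr5:17824953-17825153: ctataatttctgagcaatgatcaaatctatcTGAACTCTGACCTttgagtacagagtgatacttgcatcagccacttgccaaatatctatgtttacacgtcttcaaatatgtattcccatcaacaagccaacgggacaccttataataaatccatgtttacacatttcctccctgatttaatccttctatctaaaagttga
Fabp3, 41820 bp upstream, in an intron of Serinc2, chr4:130266675-130266875: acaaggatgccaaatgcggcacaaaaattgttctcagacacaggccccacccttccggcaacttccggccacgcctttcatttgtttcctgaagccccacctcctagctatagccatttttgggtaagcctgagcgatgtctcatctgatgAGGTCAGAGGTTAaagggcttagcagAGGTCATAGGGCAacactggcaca
The last pair was open in all 6 libraries. They were chosen after their values were seen, as the Angptl4 region ranked higher in the 4 beige and brown libraries than in white while the Fabp4 region did not.
Fabp4, 5330 bp upstream, chr3:10213806-10214006: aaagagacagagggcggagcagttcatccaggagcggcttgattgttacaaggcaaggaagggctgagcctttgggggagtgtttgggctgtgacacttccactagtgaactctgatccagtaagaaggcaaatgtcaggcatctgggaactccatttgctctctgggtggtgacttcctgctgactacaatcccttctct
Angptl4, intron, 2319 bp into the gene, chr17:33779411-33779611: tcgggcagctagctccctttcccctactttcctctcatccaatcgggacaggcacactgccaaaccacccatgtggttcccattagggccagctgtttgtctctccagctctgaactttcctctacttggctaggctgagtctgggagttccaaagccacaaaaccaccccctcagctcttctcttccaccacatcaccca

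At the promoters the 10 genes differed little between groups in whether a peak was present. A promoter peak was found in all 6 libraries for 8 of the 10 genes, against 61.8% of all protein-coding genes. The exceptions were Gpihbp1 and Slc27a1. Gpihbp1, normally made by capillary endothelial cells, had no promoter peak in any library, and the summit nearest to its start sites lay 8345 bp or more away in every library. For Slc27a1, which encodes the fatty acid transport protein FATP1, the broad peak at the promoter had its strongest summit 1281 to 1641 bp inside the gene, beyond the 1 kb limit, in the beige and brown libraries and white replicate 1. In white replicate 2 it was called as separate peaks, and 1 of them had its summit 962 bp from a start site. Counting the weaker summits of the same peaks as well, which was tried only with the values in view, gave all 6 libraries one 556 to 717 bp from a start site of Slc27a1.

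The promoter peaks ranked very differently from gene to gene. Fabp5, the epidermal-type binding protein, had the highest-ranked promoter, with −log10 q percentiles of 96.8 and 95.9 in beige, 97.8 and 96.8 in brown and 97.0 and 94.0 in white. Lpl ranked at 88.0 to 94.0 in the 6 libraries. The groups overlapped for both genes. Fabp4, the adipocyte binding protein also called aP2, ranked at 85.7 and 92.3 in beige, 86.7 and 87.0 in brown and 90.4 and 83.7 in white, again with overlap. By fold enrichment the Fabp4 promoter peak ranked lower, at 43.8 to 64.2 in beige and brown and at 81.2 and 62.9 in white. Fabp3, the heart-type binding protein, ranged from 53.6 to 77.0, and Slc27a2, a transport protein known from liver and kidney, from 38.3 to 72.3, each with wide spreads between replicates. The Fabp3 values do not share 1 summit, which lay 24 and 27 bp before the start in brown and 624 to 646 bp before it in beige and white.

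The promoters of Cd36 and Vldlr were lowest in white by −log10 q at 1 of their peaks. The first annotated start site of Cd36 had no peak within 1 kb, and the promoter peaks lay at internal start sites. The peak 38951 bp into the gene, 4 bp before one of these, ranked at −log10 q percentiles of 85.4 and 83.3 in beige, 86.6 and 80.1 in brown, and 68.2 and 71.5 in white. Both white libraries lay below all others, whereas by fold percentile, at 72.5 and 72.3, they were above beige replicate 2 at 68.0. The peak 52836 bp into Cd36, which was the stronger of the pair in brown replicate 2 and both white libraries, ranked at 81.8 and 72.3 in beige, 83.6 and 82.8 in brown, and 76.6 and 71.6 in white. There white overlapped with beige. Vldlr encodes the receptor that binds triglyceride-rich lipoproteins. Its peak 131 bp before the start ranked at 85.5 and 83.2 in beige, 79.9 and 78.2 in brown, and 73.1 and 64.7 in white. By fold percentile white was also lowest there, at 51.5 and 34.9 against 59.8 to 66.6 in the beige and brown libraries.

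**Figure D1:**
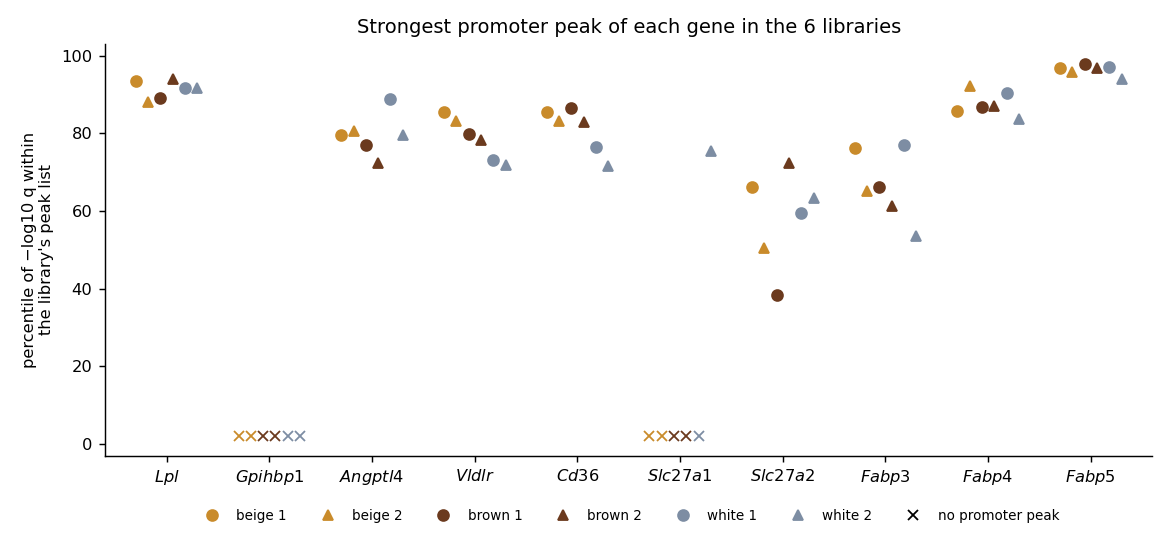
Strongest promoter peak of each gene, as the percentile of its −log10 q within the library's own peak list (vertical axis, 0 to 100); circles are replicate 1, triangles replicate 2, and crosses mark a library with no promoter peak. Fabp5 sits at the top in every library and Gpihbp1 has only crosses. For Cd36 the points are peaks at start sites 38951 bp into the gene (both beige libraries and brown replicate 1) or 52836 bp into it (the others), and for Vldlr the point of white replicate 2 is a second peak, 906 bp from a start site. For Fabp3 the summit was 24 and 27 bp before the start in brown and 624 to 646 bp before it in beige and white.

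Away from the promoters, regions open in beige and not in white made a larger share near the 10 genes than over the genome, by a margin that moved with the processing. Of the 216 regions, 18 (8.33%) had a peak in both beige and neither white library, against 4.5% of all regions. With equally long lists it was 11 of 201 regions (5.47%), against 4.18%. The reverse, white and not beige, held for 5 (2.31%), against 1.98%. For brown and not white it was 10 regions (4.63%) against 2.94%, and for white and not brown 7 (3.24%) against 3.48%. The brown share did not exceed that of all regions when a brown library was left out, with 25 regions (11.7%, against 11.8%) without replicate 1 and 21 (10.1%, against 10.6%) without replicate 2. The 6 regions open in both beige and brown and not in white made 2.78%, against 1.25% of all regions. Of these 6, 4 lay near Cd36, which held 44 of the 216 regions, and the excess over all regions rested on that gene. Cd36 also held 8 of the 18 regions open in beige and not in white. The 3 regions open in white and in neither other group made 1.39%, against 1.23%. The beige and brown comparisons share the same white libraries. Altogether 31 regions (14.4%) near 9 of the genes differed in one or more of these ways, against 10.4% of all regions, and only 1 of the 31 had its summit within 1 kb of a start site. Gpihbp1 was the gene without any.

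These counts depend on single libraries. Without beige replicate 1, 37 regions (17.1%) were open in beige and not in white, against 13.5% of all regions, and without beige replicate 2 it was 28 (13.2%, against 10.99%). Without white replicate 2, 30 regions (14.4%) were open in beige and not in white, against 9.12% of all regions, and 12 (5.74%) in beige and brown and not in white, against 3.07%. Without white replicate 1 the counts were 25 (12.3%, against 8.28%) and 8 (3.94%, against 3.16%). A group with a single library left needs only that library, which raises these counts. Many of the peaks were weak. Of the 18 regions open in beige and not in white, 7 had −log10 q over 5 in both beige libraries, and of the 6 open in beige and brown, 3 had it in all 4. Such regions were weak over the genome too. The median −log10 q of the 18 was 5.67 and 6.91 in the beige libraries, against 6.17 and 7.58 for all regions open in beige and not in white.

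**Figure D2:**
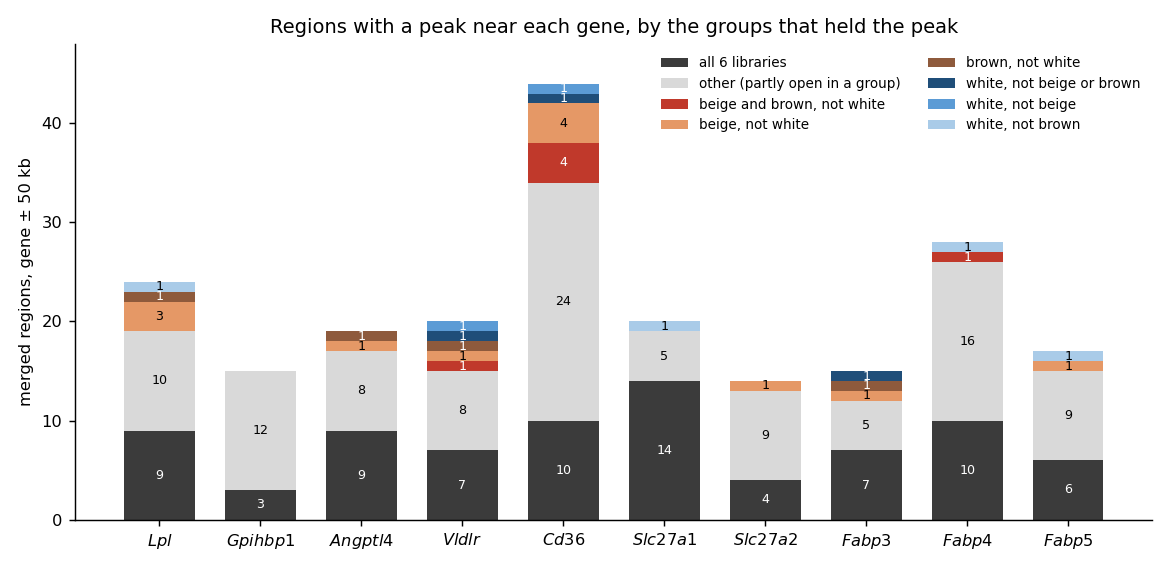
Number of merged regions with a summit within each gene or 50 kb to either side (vertical axis), split by the groups that held a peak in both libraries and the groups that held none; each region is counted once, and the light grey part had a peak in only some libraries of a group. Cd36 has the most regions, 44, and 4 of the 6 regions open in beige and brown but not white.

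Cd36 carried the largest part of this difference. Its window, the 107112 bp gene on the minus strand of chromosome 5 (17781690 to 17888801) and its flanks, held 44 regions, more than 97.7% of all gene windows, which differ in length. The 6 libraries had 30 and 34 peaks there in beige, 26 and 28 in brown, and 24 and 19 in white. Per 100000 peaks of the library this was 26.0 ± 1.00 in beige, 24.2 ± 1.99 in brown and 17.9 ± 2.83 in white (SD, n = 2), and both white libraries lay below all others. Vldlr, with 14 and 16 peaks in beige, 16 and 14 in brown and 12 and 14 in white, also had both white libraries lowest on this scale. There white replicate 2, at 11.73, and beige replicate 1, at 11.78, had equal counts and differed only by list length. Gpihbp1 and Slc27a1 had both white libraries highest, the first at 7.09 ± 0.544 in white against 5.27 ± 0.312 in beige and 4.93 ± 0.487 in brown. For Slc27a1 the margin was small, with 16.6 in white replicate 1 against 16.5 in beige replicate 2. For the other 6 genes beige and brown overlapped with white.

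The region 30497 bp upstream of the first Cd36 start site was the strongest of the 4. Its −log10 q was 9.36 and 20.3 in beige and 32.8 and 18.3 in brown, with no peak in white. The peaks ranked at fold percentiles of 48.7 and 63.2 in beige and 83.7 and 79.2 in brown, so that both brown libraries were above both beige ones. In the intron 24982 bp into the gene the order was the opposite, with fold percentiles of 63.7 and 47.0 in beige and 40.7 and 26.9 in brown. The −log10 q there was 16.8 and 11.3 in beige and 6.85 and 4.77 in brown. The region 73175 bp into the gene, also intronic, had 2.29 and 6.86 in beige and 3.87 and 6.55 in brown. The downstream region at 120176 bp had 4.18 and 5.53 in beige and 3.10 and 3.83 in brown. The region at 73175 bp thus came close to the authors' threshold, a −log10 q of 1.30, in beige replicate 1. Both regions of this last pair had a −log10 q under 5 in at least 1 library. Over all protein-coding genes, 22 had 4 or more such regions in their windows, the most being 20, and 3784 (17.2%) had at least 1. Without white replicate 1 the count near Cd36 was 5, and without white replicate 2 it was 4.

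Next to the intronic region at 24982 bp lay one that was open in every library and stronger in beige and brown. It was 25485 bp into Cd36 and had −log10 q of 42.0 and 63.7 in beige, 27.2 and 40.0 in brown, and 13.5 and 10.8 in white. Its fold percentile was 87.0, 92.6, 81.0 and 89.0 in the beige and brown libraries and 71.1 and 72.9 in white. White was below the other groups on both scales. A further 4 regions of Cd36 were open in beige and not in white with a peak in at most 1 brown library, all with −log10 q between 2.95 and 9.07. They include the intronic region at 63694 bp with the DR1 match, at 2.95 and 5.71. In the other direction, a region 111909 bp from the first start, beyond the end of the gene, was open in white only, with −log10 q of 6.82 and 2.54. A region 984 bp before an internal start site was open in white, at 6.13 and 9.74, in brown replicate 2, at 6.10, and not in beige. It was the 1 region within 1 kb of a start site among the 31.

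**Figure D3:**
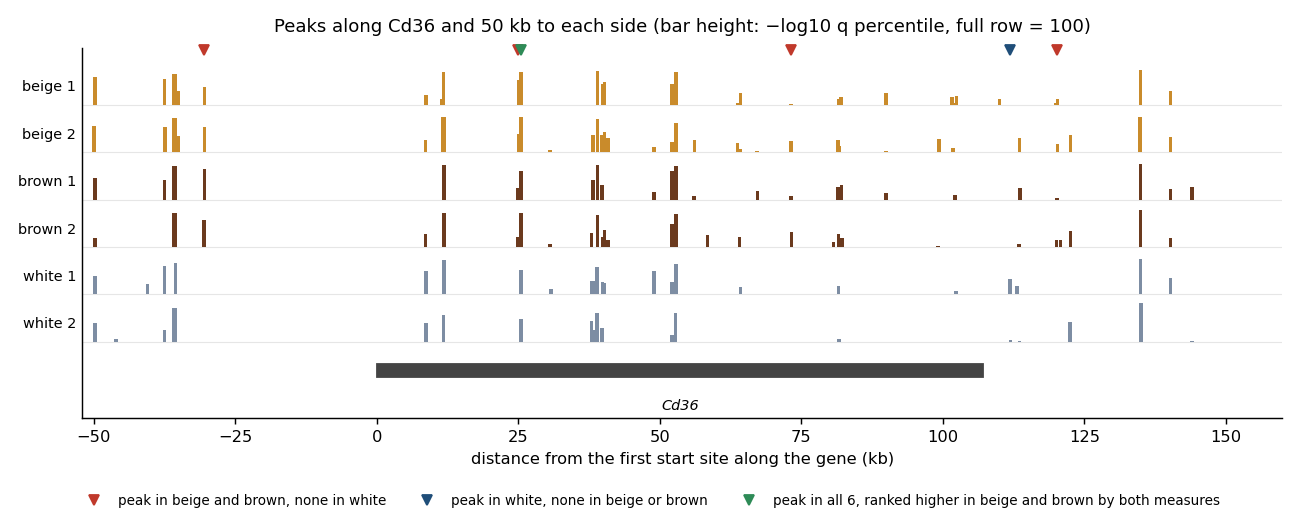
Peaks along Cd36 by distance from its first start site in kb (horizontal axis), one row per library, with bar height the −log10 q percentile of the peak within its library and narrow peaks widened to be visible; the dark bar is the gene. The red triangles mark the 4 regions with peaks in beige and brown and none in white, the blue one the region open in white only, and the green one the region at 25485 bp that was open in all 6 libraries and ranked higher in beige and brown.

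The other membrane proteins of this step, Slc27a1 and Slc27a2, had no region open in both beige and brown and not in white. Near Slc27a2 1 region, 31383 bp upstream, was open in beige and not in white or brown, with −log10 q of 4.66 and 23.2. The beige replicates thus differed widely. Near Slc27a1 1 region, 37903 bp upstream, was open in white, at 6.80 and 9.06, and in beige replicate 2, and not in brown. The Slc27a1 window held 14 regions open in all 6 libraries, of which 7 ranked higher in beige and brown than in white and 3 lower. Of its 20 regions only 3 had Slc27a1 as the nearest gene start. One of these was the broad promoter peak described above. Its −log10 q was 85.2 and 79.3 in beige, 110 and 81.4 in brown, and 35.0 and 20.5 in white. The fold percentiles were 70.7 to 82.7 in beige and brown and 68.2 and 50.4 in white, so white was lowest on both scales.

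Among the binding proteins, Fabp4 had 1 region open in beige and brown and not in white, 3366 bp upstream of its start site. The −log10 q was 9.70 and 7.58 in beige and 6.14 and 6.19 in brown, at percentiles of 26.0 to 45.4. By fold enrichment the same peaks were among the weakest of their lists, at percentiles of 0.564 to 1.79. Both scales thus placed this region differently. The region 5330 bp upstream, in the stretch where the well-studied fat-specific enhancer of Fabp4 lies, was open in all 6 libraries. Its −log10 q was 40.0 and 46.1 in beige, 56.6 and 51.1 in brown, and 43.8 and 12.7 in white. By −log10 q percentile white replicate 1 was the highest library, at 87.9 against 81.4 to 87.1 in beige and brown, and white replicate 2 the lowest, at 61.8. The fold percentiles had the same extremes, 84.1 and 47.5 in white against 51.2 to 75.7 in beige and brown. The groups thus overlapped. At 8062 bp upstream both white libraries ranked above all others. The −log10 q percentiles there were 9.31 to 40.7 over the beige and brown libraries and 51.8 and 46.2 in white, and the fold percentiles were also highest in white.

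Fabp3 and Fabp5 had no region open in beige and brown and not in white. The clearest Fabp3 region was 9122 bp upstream and open in all 6 libraries. Its −log10 q percentile was 51.6 and 52.4 in beige, 65.7 and 38.0 in brown, and 24.4 and 2.59 in white. This was the largest mean difference in fold percentile from white among the 79 regions open everywhere, 38.3 points. The Fabp3 region with the pair of DR1 matches, in an intron of the neighbouring gene Serinc2, was open in beige at −log10 q of 3.24 and 8.07 and in no other library. A region 33361 bp upstream was open in white only, at 2.52 and 4.44. Both Fabp5 regions that ranked apart, 38014 bp upstream and 47346 bp downstream of the start, were higher in white, with −log10 q percentiles of 63.7 to 84.1 in white against 39.2 to 71.5 in the other libraries. In each of them both white libraries were above all others.

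For the lipase and its partners the picture was mixed. Lpl had 24 regions, and 3 were open in beige and not in white, 45233 and 30431 bp upstream and in the intron at 2850 bp. None of these was open in both brown libraries. Of the 9 Lpl regions open everywhere, 5 had a lower fold percentile in beige and brown than in white, and for 3 of the 5 the −log10 q percentile was lower as well. At 19569 bp upstream the −log10 q percentile was 51.9 and 38.8 in beige, 29.2 and 51.9 in brown, and 81.8 and 66.2 in white. At 44975 bp upstream the order was the opposite, with 73.6 and 73.2 in beige, 73.1 and 71.9 in brown, and 38.9 and 58.9 in white. The start site nearest to this last region is that of Ints10. At each of these regions both white libraries lay apart from the beige and brown libraries on both percentile scales.

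Angptl4, which encodes the secreted inhibitor of lipoprotein lipase, had its clearest difference in an intron 2319 bp from the start. The −log10 q was 49.8 and 65.7 in beige, 74.4 and 54.3 in brown, and 17.9 and 16.1 in white. Its −log10 q percentile was 85.2 to 88.7 in the beige and brown libraries and 69.4 and 69.0 in white, and its fold percentile 36.4 to 56.7 against 18.1 and 17.8. Every beige and brown library was above both white libraries on both scales. The promoter peak of the same gene, with its summit 530 bp inside it, went the other way by fold percentile, at 18.0 to 28.5 in beige and brown and 59.4 and 36.4 in white. By −log10 q the promoter groups overlapped. A region 16690 bp upstream was open in beige, at −log10 q of 22.2 and 13.7, in brown replicate 2 at 4.02, and in no white library. Its nearest start site is that of Kank3.

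Vldlr had 1 region open in beige and brown and not in white, 41187 bp upstream in an intron of the annotated gene AC118724.1. The −log10 q was 12.2 and 7.16 in beige and 10.7 and 19.2 in brown. It was 1 of the 3 regions with −log10 q over 5 in all 4 libraries, and the only one of the 6 whose window held a DR1 match. A region 45344 bp from the first start was open in white only, at 6.72 and 4.53. At the promoter peak 131 bp before the start, given above as percentiles, −log10 q was 50.7 and 50.2 in beige, 41.3 and 29.2 in brown, and 20.6 and 14.0 in white. Gpihbp1 had 15 regions, of which 3 were open everywhere. The 1 that ranked higher in beige and brown lay 45797 bp away, nearest to the start of Zfp41.

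**Figure D4:**
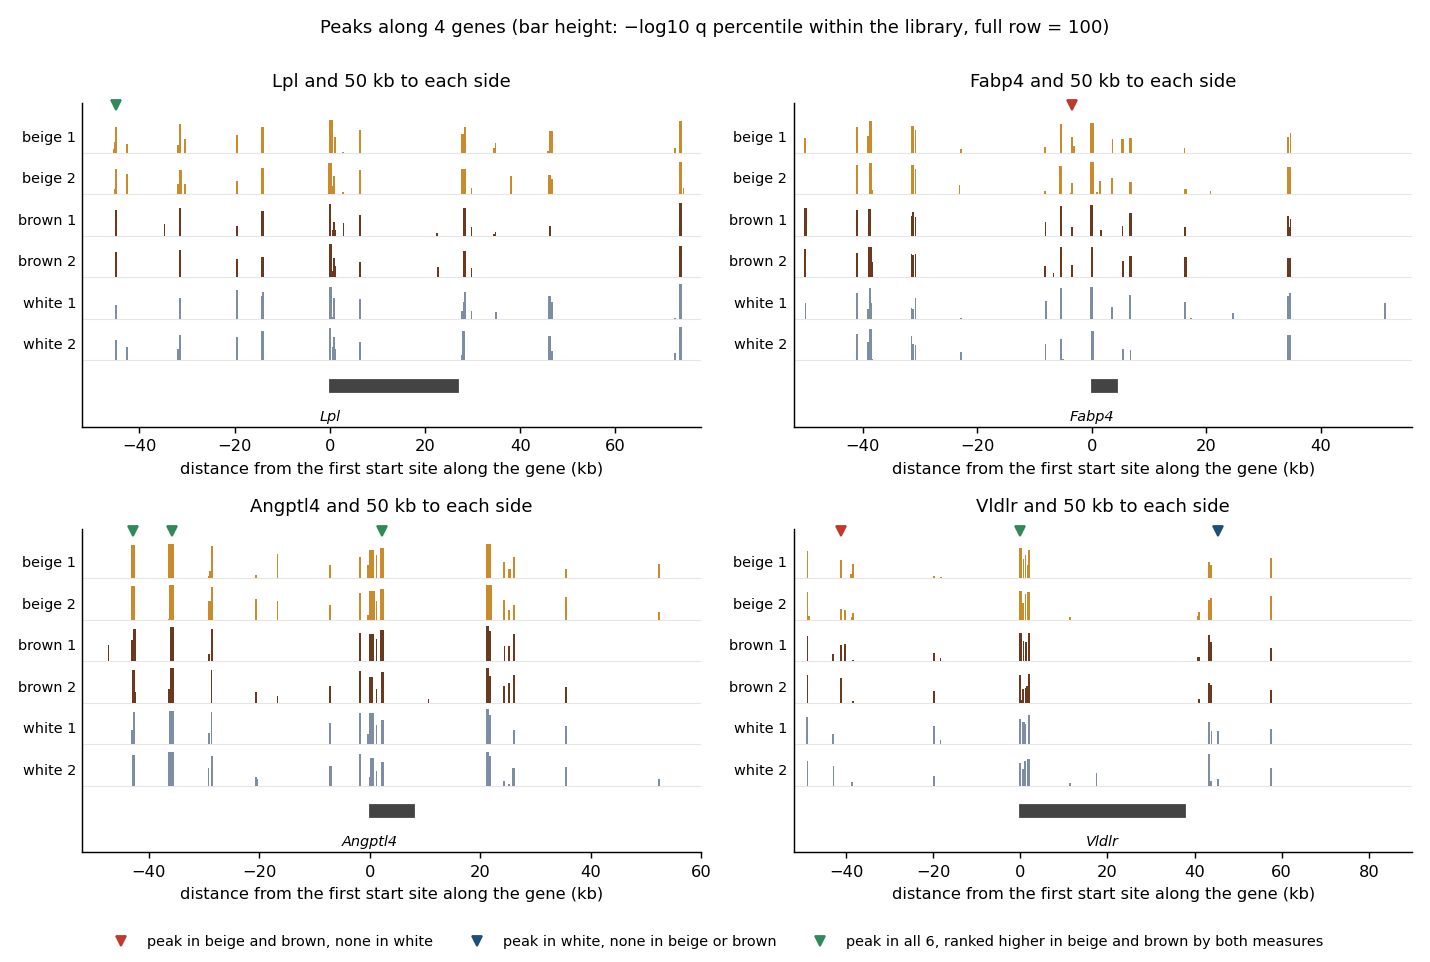
Peaks around Lpl, Fabp4, Angptl4 and Vldlr, drawn as for Cd36, with distance from the first start site in kb on the horizontal axis and bar height the −log10 q percentile in each library. The promoter peaks are present in every row, and the Angptl4 region 2319 bp into the gene is taller in the beige and brown rows than in both white rows.

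Of the 216 regions, 79 (36.6%) had a peak in all 6 libraries, against 30.2% of all regions. Among these 79, 17 (21.5%) had a higher fold percentile in all 4 beige and brown libraries than in both white ones, against 12.4% of all such regions, and 14 (17.7%) a lower one, against 12.3%. By −log10 q percentile it was 18 higher (22.8%), against 13.4%, and 8 lower (10.1%), against 14.1%. On both scales together 16 were higher and 8 lower, and none went opposite ways. Of all 58720 regions open in every library, 5690 were higher and 5795 lower on both scales, and only 4 went each opposite way. The lower share near the members was thus close to that of all such regions. The excess in the higher direction was not seen without white replicate 2, when 20 (24.4%) were higher by fold, against 24.0% of all such regions, and 28 (34.1%) were lower, against 25.9%. Without white replicate 1 it was 34 (40.0%) higher, against 29.0%, and 20 (23.5%) lower, against 24.1%. Of the 17 higher regions, 5 had a member as the nearest gene start, and 7 lay around Slc27a1, in a stretch with many other genes.

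**Figure D5:**
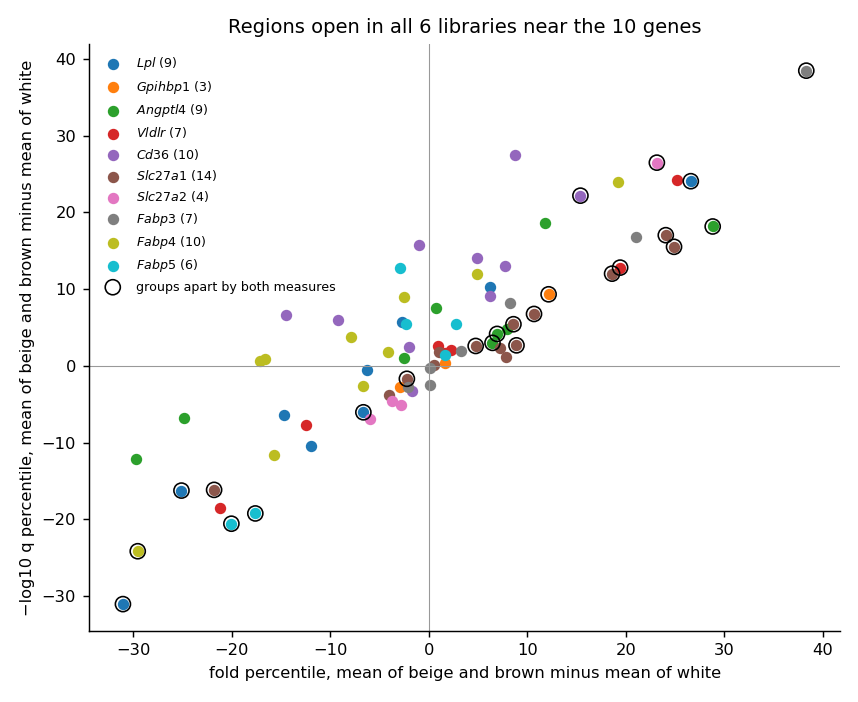
The 79 regions open in all 6 libraries, coloured by gene with the number of regions in brackets; the horizontal axis is the mean fold percentile of the 4 beige and brown libraries minus that of the white ones, and the vertical axis the same for −log10 q. Circled points had every beige and brown library on one side of both white ones on both scales, 16 to the upper right and 8 to the lower left, with the Fabp3 region 9122 bp upstream farthest out at 38.3 points of fold percentile.

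The DR1 consensus AGGTCANAGGTCA, searched on both strands with at most 1 mismatch in the 201 bp around each strongest summit, was found in 5 of the 216 regions (2.31%), against 0.541% of all regions. Over the genome it was found in 1.11% of the 2441 regions open in beige and brown and not in white, and in 0.433% of those open everywhere. Among the 8749 regions open in beige and not in white it was 0.926%. Near the members, 3 of the 5 were among the 18 regions open in beige and not in white, those printed above for Vldlr, Cd36 and Fabp3. The fourth lay 624 bp upstream of Fabp3 in a region open in all 6 libraries, and the fifth 18308 bp upstream of Gpihbp1 with a peak in white replicate 2 alone. The count was 0 with no mismatch and 14 (6.48%, against 3.63%) with 2. DR4, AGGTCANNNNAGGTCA, the spacing preferred by the thyroid hormone receptor with RXR, was found in 2 regions (0.926%, against 0.270%), both near Lpl, neither of them open in beige and brown only. The C/EBP consensus TTGCNNAA was in 27 regions (12.5%), against 12.6%, and the EBF consensus TCCCNNGGGA in 1 (0.463%), against 1.40%. No region near the members held both a DR1 and a DR4 match. These matches describe letters in the windows and were not measured as binding. A window without a match can still hold a repeat with more mismatches.

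A list of 33 further genes of fatty acid uptake, binding, activation and lipoprotein handling was described the same way. Their windows held 603 regions, and 10 (1.66%) were open in beige and brown and not in white, in the windows of 9 genes, against 1.25% of all regions. Another 3 (0.498%) were open in white and in neither other group, against 1.23%. Regions open in beige and not in white made 4.81%, against 4.5%, and the reverse 1.16%, against 1.98%. Acsl1, which activates long-chain fatty acids with coenzyme A, had 2 of the 10, and 1 of them lay 3 bp from one of its start sites. Its −log10 q was 7.94 and 7.08 in beige and 16.5 and 14.7 in brown. Dbi, a carrier of acyl-coenzyme A, also had 2, with the stronger at 10.5 and 24.7 in beige and 11.3 and 3.61 in brown. Lipc, hepatic lipase, had 3, each with −log10 q of at most 9.91, and no promoter peak. The windows of Fabp9, Fabp12 and Pmp2 overlap that of Fabp4 and hold its region 3366 bp upstream, and Apoc2 and Apoe share 1 region. Apoc3 had 1. White-only regions lay near Pmp2 and Fabp9, which share 1, and near Lipc and Lrp1. A promoter peak was found in all 6 libraries for 21 of the 33 genes, against 61.8% of all protein-coding genes, and in none for 8.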

How the data were processed

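ATAC-seq peak lists of 6 libraries (2 each of beige, brown and white adipocytes) were used as deposited. Per the labels, BWA, SAMtools, MACS2 and deepTools were among the authors' tools, with mm10 as the genome build, and the deposited peaks passed the authors' q value of 0.05. The deposited values used were the fold enrichment of a peak over its local background, a ratio, and its −log10 q value. Both depend on the depth of the library, which the files do not hold, so no interval could be computed and each value was ranked within its own list. Lines that repeat an interval with another summit were reduced to the summit of highest −log10 q. The fold enrichment kept for the interval was the highest of any of its summits, so it can belong to another summit.

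Regions were merged over all lists with pandas 2.3.3 in Python. Open in a group means a peak in both of its libraries. Genes and start sites are those of protein-coding transcripts in the GENCODE basic set, release 21 for mouse, and sequences were read from the GRCm38 reference with pysam. The region classes were tested on simulated lists. The study's methods name the beige and white replicates biological replications; for the brown ones the labels do not say whether cultures came from separate mice. The rule for naming covered all 10 members, and genes of the wider list with a region open in beige and brown only or in white only; 1 gene of that list is not reported here. The members and lists were chosen with earlier results of these data known. Alternatives were a q value under 0.00001, equally long lists, a cover of 0.5, flanks of 10 kb, promoters of 3 kb, all transcripts, and leaving out each library.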

Additional observations from a re-analysis of the deposited data

Results flagged for a closer look

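Of the 79 regions near the members open in all 6 libraries, 4 had the beige and the brown libraries on opposite sides of white. In these, both beige libraries lay on one side of the white libraries by fold percentile and both brown libraries on the other. The share of all such regions that met this rule is not given, so the count cannot be set against the genome. The differences between beige and brown were not tested. Near Cd36, brown was above and beige below white 35714 bp upstream of the first start site, where the beige mean minus the brown mean was -14.2 percentile points, and in the intron 82199 bp into the gene, where it was -25.6. Near Fabp3, in an intron of Zcchc17 33290 bp from the start, beige was above and brown below white, by 27.7 points. The same held 57531 bp from the first Vldlr start site, by 22.9 points. The Fabp3 region had −log10 q percentiles of 78.9 and 76.6 in beige and 51.0 and 53.8 in brown, with both white libraries between them. By −log10 q percentile the Cd36 regions did not keep this order. Beige replicate 2, at 86.5, was above every white and brown library at the first, and the beige mean was above the white mean by 10.97 points at the second.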

How the results depend on the processing

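No paired analysis was possible, since none of the results comes from a test between groups. Of 94 alternative values, 58 were within 1.5 times the reported count and 36 were not. Shares of members are set against all regions. With a q value under 0.00001, regions open in white and not in brown numbered 3 (1.75% against 3.58%) and those open in white alone 0 (against 1.10%). With equally long lists, 11 regions were open in beige and not in white (5.47% against 4.18%) and 3 in white and not in brown (1.49% against 3.23%). With a cover of 0.5 of the strongest peak, 11 were open in white and not in brown (5.09% against 3.69%). With flanks of 10 kb, 8 of 97 regions were open in beige and not in white (8.25%), 3 in white and not in beige (3.09%), 6 in brown and not in white (6.19%), 2 in white and not in brown (2.06%), 3 in beige and brown and not in white (3.09%), and of 39 shared regions 7 ranked higher (17.9%) and 6 lower (15.4%), against the shares of all regions in the report. Ranked by −log10 q, 8 shared regions were lower. DR1 matches numbered 0 with no mismatch and 14 with 2. Leaving out each library in turn gave 18 to 37 regions open in beige and not in white, 5 to 20 in white and not in beige, 11 to 25 in brown and not in white, 8 to 24 in white and not in brown, 7 to 12 in beige and brown and not in white, 4 to 18 in white alone, 18 to 34 shared regions ranked higher and 14 to 28 lower, since a group with 1 library left needs only that library. The 8 genes with a promoter peak in all libraries stayed at 8 whichever library was left out, and were 9 with promoters of 3 kb, with all transcripts or with every summit counted. The share of all protein-coding genes under these looser rules is not given, so the 9 cannot be set against the genome. The depth of the libraries is not in the files, so a missing peak says only that none passed the authors' threshold. The study's reporting summary lists fewer mapped reads, and a lower mapped share, for both beige libraries than for both white ones. The brown libraries are not listed there. The part of this difference in the results was not tested.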
